A study of Rattus norvegicus with 9 samples.

Results

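Respiratory complexes II to V are the mitochondrial respiratory complexes other than complex I (NADH dehydrogenase). Complex II (succinate dehydrogenase) oxidises succinate and passes electrons to ubiquinone. Complex III hands them on to cytochrome c, complex IV (cytochrome c oxidase) reduces oxygen with them, and complex V (ATP synthase) uses the resulting proton gradient to make ATP. Liver cells hold many mitochondria, and the subunits followed here are encoded in the nucleus and imported.

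The genes were taken by symbol from the array maker's probe sets that carry a single gene symbol, namely Sdha, Sdhb, Sdhc, Sdhd, Cyc1, Cycs, and symbols that start with Uqcr, Cox4i, Cox5, Cox6, Cox7, Cox8, Atp5f1, Atp5m or Atp5p. This gave 44 genes on 48 probe sets, of 14217 single-symbol genes on the array. Of these, 4 genes belong to complex II, 8 to complex III, 17 to complex IV and 15 to complex V. Where a gene had several probe sets, the one of highest mean log2 signal over the 9 arrays stands for it. A probe set was tested where that mean was at or above the 40th percentile of all probe sets, which held for 38 of the 44 genes. The other 6 genes, Cox4i2, Cox6a2, Cox6b2, Cox7a1, Cox7b2 and Cox8b, lay below it and are described apart. Cytochrome c itself (Cycs), the membrane subunits Atp5mc1 and Atp5mc2, Cox7a2, Uqcrb and a further Cox5a probe set lay on 7 probe sets with several symbols, and no values are given for them.

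The livers came from Wistar rats labelled male, weighing 180 to 220 g, in a drug group that received 7-P, a model group and a control group. Of 36 rats, 12 were assigned to each group, and 3 of each were arrayed. The labels and notes at hand do not say how model rats were treated, whether drug rats shared that treatment, what 7-P is or how old the rats were. The labels make each array a different rat.

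Hepatocyte markers were present on every array. The summed signal of 11 of them, albumin and transthyretin included, was between 42992 and 47955 in drug, 41188 and 45552 in model, and 44511 and 46319 in control arrays. Control 2 and drug 3 stood apart in sex-linked transcripts. Their log2 signals of Xist, the noncoding RNA of X inactivation, were 2.65 in control 2 and 3.05 in drug 3, against 8.06 to 10.89 in the other arrays. Those of the Y-linked Eif2s3y were 6.99 and 7.17 in the same 2 arrays, against at most 2.53 in the others. The other 7 arrays thus showed the pattern known from females, against their label. For complexes II to V the counts at an unadjusted p, the slope calls and the medians are therefore also given without these 2 arrays. The Gapdh 3′ to 5′ signal ratio, which is higher where less of the 5′ end of this transcript was measured, was 1.31, 9.20 and 8.71 in drug 1, 2 and 3. Model 1, 2 and 3 had ratios of 4.09, 12.7 and 9.77, against 1.52, 3.14 and 3.07 in control 1, 2 and 3.

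Transcription factors that bind the promoters of respiratory genes include NRF-1, GABP of the ETS family, YY1 and the estrogen-related receptors (ERR). RefSeq promoter windows of the GRCr8 build, from 250 bases before to 50 bases after the start of the gene, were matched for 37 of the 44 genes by gene identifier. The NRF-1 letters GCGCANGCG, read on both strands, were found in 9 of these 37 windows (24.3%) and in 5.8% of 33469 rat promoter windows. On both strands as well, the ETS letters CCGGAAG were found in 13 (35.1%, against 8.75% of all windows), the YY1 letters AAGATGGC in 7 (18.9%, against 3.17%) and the ERR letters TCAAGGTCA in 2 (5.41%, against 0.433%). The NRF-1 letters were in 6 of 14 complex V windows, 1 of 4 of complex II, 1 of 6 of complex III and 1 of 13 of complex IV, and in 0 genes did they overlap one of the other motifs. The windows below are shown because they hold these letters, in capitals, in genes lower or higher in model livers after quantile normalization. They lie at chr1:30764303-30764602 on the plus strand for Sdha, with 3 matches, at chr8:118467973-118468272 on the plus strand for Uqcrc1, with 2, at chr14:1464610-1464909 on the plus strand for Atp5me, where 2 matches overlap each other, and at chr6:136845591-136845890 on the minus strand for Atp5mpl.
Sdha: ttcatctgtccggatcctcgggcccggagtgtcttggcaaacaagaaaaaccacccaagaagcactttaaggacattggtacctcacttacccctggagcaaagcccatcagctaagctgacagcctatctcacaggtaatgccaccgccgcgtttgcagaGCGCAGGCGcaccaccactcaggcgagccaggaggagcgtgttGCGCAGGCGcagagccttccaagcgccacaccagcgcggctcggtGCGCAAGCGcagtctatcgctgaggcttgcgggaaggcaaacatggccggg
Uqcrc1: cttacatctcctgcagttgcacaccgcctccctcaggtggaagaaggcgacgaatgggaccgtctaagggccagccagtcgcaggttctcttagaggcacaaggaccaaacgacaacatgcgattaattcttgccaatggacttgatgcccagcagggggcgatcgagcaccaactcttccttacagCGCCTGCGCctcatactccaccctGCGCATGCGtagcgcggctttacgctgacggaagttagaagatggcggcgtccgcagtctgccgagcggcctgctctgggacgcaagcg
Atp5me: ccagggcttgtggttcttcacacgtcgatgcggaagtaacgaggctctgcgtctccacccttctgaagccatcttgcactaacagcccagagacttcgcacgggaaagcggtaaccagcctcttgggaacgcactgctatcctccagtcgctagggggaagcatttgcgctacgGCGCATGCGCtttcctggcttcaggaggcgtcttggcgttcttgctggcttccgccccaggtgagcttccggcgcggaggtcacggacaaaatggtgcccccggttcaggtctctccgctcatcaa
Atp5mpl: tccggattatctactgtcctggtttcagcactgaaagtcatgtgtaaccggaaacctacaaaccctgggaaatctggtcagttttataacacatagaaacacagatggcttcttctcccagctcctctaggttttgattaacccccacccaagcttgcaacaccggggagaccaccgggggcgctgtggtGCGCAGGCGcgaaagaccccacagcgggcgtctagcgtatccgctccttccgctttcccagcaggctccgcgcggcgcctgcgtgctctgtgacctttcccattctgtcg
A match of letters describes the window and was not measured as binding. Atp5mpl, the gene higher in model livers, was lower there with unnormalized, median-centred or trimmed-mean signals. Atp5me, lower by its brighter probe set, was at 0.07 with its probe sets averaged.

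Subunit transcripts of complexes II to V were mostly lower in model than in control livers, though unevenly. Of the 38 genes tested, 29 had a lower mean quantile-normalized signal in model livers and 9 a higher one, all 9 of which were lower with unnormalized or median-centred signals. The median log2 difference was -0.46, against 0.02 over all 18625 probe sets tested, of which 48.9% were lower. By complex the medians were -0.78 for the 4 genes of complex II, -0.42 for the 8 of complex III, -0.15 for the 11 of complex IV and -0.41 for the 15 of complex V. No gene passed on its own. The limma fit over all probe sets, with Benjamini-Hochberg adjustment, called 0 of 38 genes and 0 (0%) of all probe sets at an adjusted p under 0.05. At an unadjusted p under 0.05, 12 genes were lower (31.6%, against 5.54% of all probe sets) and 1 was higher (2.63%, against 6.51%). In 14 genes every model array lay below every control array (36.8%, against 10.9% of all probe sets), and in 1 gene every model array lay above (11.8% of all). Because the tissue was measured in bulk, fewer cells of a type and less RNA per cell cannot be told apart.

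**Figure D1:**
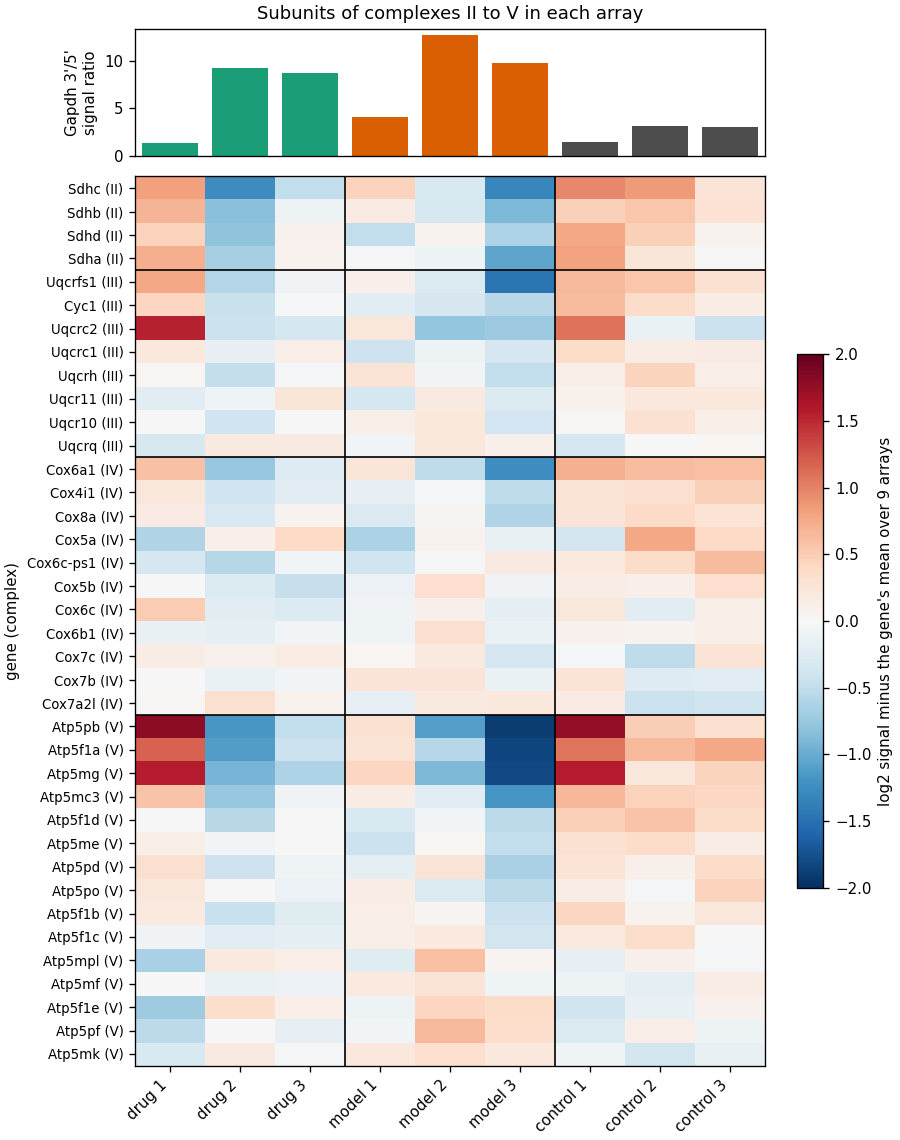
Each row is 1 of the 38 tested genes, with its complex in parentheses, and each column 1 array. Colour gives the log2 signal minus the gene's own mean over the 9 arrays, and bars above give the Gapdh 3′ to 5′ signal ratio. Drug 1 and control 1, with ratios of 1.31 and 1.52, are high in Atp5pb, Atp5mg and Uqcrc2, and model 3 is low in most rows.

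The difference rested in part on single arrays. Without model 3, 1 gene was lower at an unadjusted p under 0.05, where 2.87% of all probe sets were. Without control 1, 2 or 3 the numbers were 3, 5 and 7 (2.96%, 3.1% and 4.04% of all). Without control 2 and drug 3 together it was 1 (2.72% of all). The median stayed between -0.50 and -0.33 when each array was left out in turn, and was -0.50 without control 2 and drug 3, where 30 of 38 genes were lower.

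All 4 subunits of complex II were lower in model livers. Sdha, the flavoprotein that holds the succinate site, had log2 signals of 8.58, 8.50 and 7.55 in model livers, against 9.41, 8.85 and 8.59 in control livers. The groups did not overlap, but the margin between model 1 and control 3 was small. Sdhb, the iron-sulfur subunit, was at 9.22, 8.73 and 8.15 in model livers, against 9.53, 9.60 and 9.33 in control livers, again without overlap. The membrane anchors Sdhc and Sdhd did overlap between the groups. Sdhc had 8.62, 7.85 and 6.85 in model livers, against 9.12, 9.01 and 8.41 in control livers. The log2 differences were -0.74 (SE 0.403) for Sdha, -0.79 (SE 0.381) for Sdhb, -1.07 (SE 0.553) for Sdhc and -0.78 (SE 0.348) for Sdhd, with limma adjusted p between 0.414 and 0.458. A further, dimmer Sdhd probe set gave -1.16.

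In complex III the redox subunits were lower together. Cyc1, cytochrome c1, which passes electrons to cytochrome c, had log2 signals of 8.28, 8.16 and 7.94 in model livers, against 9.13, 8.86 and 8.65 in control livers. The lowest control array stood above all 3 model arrays. The difference was -0.75 (SE 0.262, limma adjusted p = 0.384), a fold of 0.593. Uqcrfs1, the Rieske iron-sulfur protein, was at 8.79, 8.40 and 7.23 in model livers, against 9.34, 9.25 and 8.996 in control livers, a difference of -1.06 (SE 0.430). The core protein Uqcrc1 differed by -0.51 (SE 0.202), also without overlap. Its partner Uqcrc2 varied more inside the groups, with 7.83, 6.83 and 6.88 in model livers, against 8.68, 7.48 and 7.17 in control livers. Its difference was -0.59 (SE 0.572), and a further, dimmer Uqcrc2 probe set gave -1.41. The small subunits differed less, with -0.32 for the hinge protein Uqcrh, -0.31 for Uqcr11, -0.16 for Uqcr10 and 0.19 for Uqcrq, which was lower on the other scales.

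In complex IV, 8 of 11 genes were lower. Cox6a1, the form of subunit VIa found in most tissues, had log2 signals of 9.21, 8.47 and 7.73 in model livers, against 9.68, 9.58 and 9.58 in control livers. The control arrays lay close together, while model 1 and model 3 lay far apart. The difference was -1.15 (SE 0.404, limma adjusted p = 0.384). Cox4i1, the common form of the largest nuclear-encoded subunit, was at 10.44, 10.58 and 10.10 in model livers, against 10.89, 10.94 and 11.09 in control livers, a difference of -0.60 (SE 0.219). Cox8a was lower by a similar amount, -0.58 (SE 0.225), and these 3 genes showed no overlap. Cox5a gave -0.51 (SE 0.373) with overlap. Near 0 were Cox5b (-0.15), Cox6c (-0.09), Cox6b1 (-0.05) and Cox7c (0.06), while Cox7b (0.20) and the supercomplex assembly factor Cox7a2l (0.30) were on the higher side after quantile normalization and below 0 with unnormalized or median-centred signals. The pseudogene Cox6c-ps1, dim throughout, gave -0.48.

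**Figure D2:**
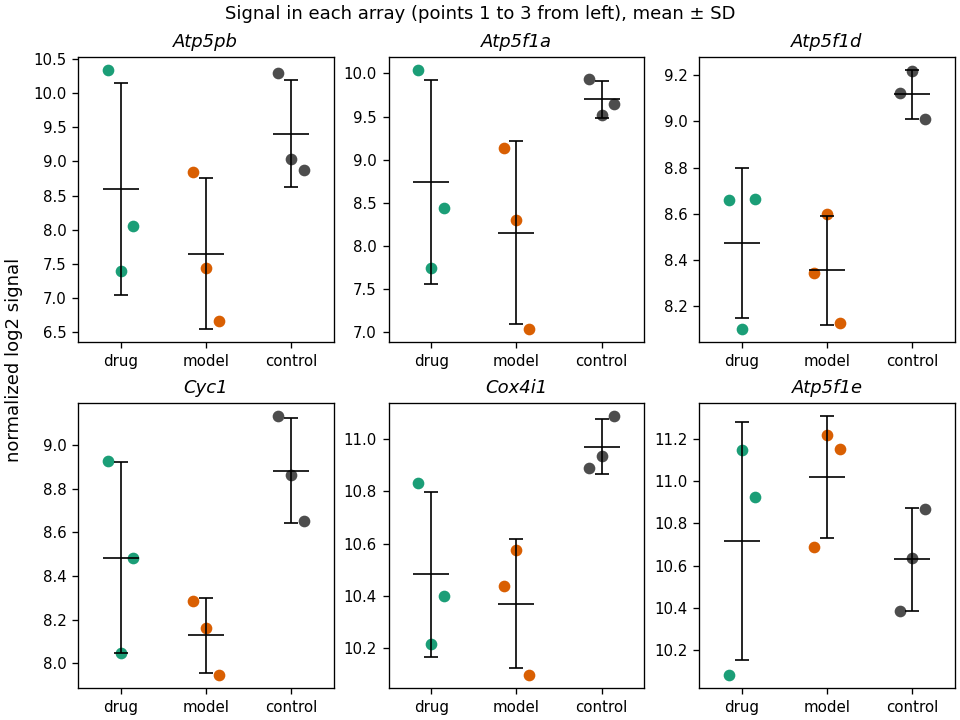
Points are the normalized log2 signals of single arrays, replicates 1 to 3 from left to right, for 6 genes in drug, model and control livers, with each group's mean and SD. Vertical axes differ between panels and do not start at 0. In Atp5f1d and Cyc1 every model array lies below every control array, while in Atp5pb and Atp5f1a the spread inside drug and model livers is wide.

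Complex V held both ends of the range. Atp5pb, the b subunit of the peripheral stalk, had log2 signals of 8.85, 7.44 and 6.65 in model livers, against 10.30, 9.04 and 8.88 in control livers. The groups did not overlap, but each spanned more than a log2 unit. The difference was -1.76 (SE 0.772, limma adjusted p = 0.410), the lowest of the 38 genes. Atp5f1a, the alpha subunit of the catalytic head, was at 9.13, 8.30 and 7.03 in model livers, against 9.94, 9.51 and 9.64 in control livers, a difference of -1.54 (SE 0.608). Atp5mg, the membrane subunit g, gave -1.51 (SE 0.718) with overlap, and Atp5mc3, a gene of the proton-carrying c ring, -0.93 (SE 0.387) without.

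Other ATP synthase genes were tighter. Atp5f1d, the delta subunit of the central stalk, had 8.34, 8.60 and 8.13 in model livers, against 9.12, 9.22 and 9.01 in control livers. Its difference, -0.76 (SE 0.232), had the smallest p of the 38 genes, with a limma adjusted p of 0.384. The membrane subunit gene Atp5me was lower by a log2 difference of -0.57 (SE 0.211), also without overlap. A further Atp5me probe set, below the filter, ran the other way, with a mean of 3.04 in model livers, against 2.32 in control livers, and the mean of both probe sets differed by 0.07. Atp5f1b, which carries the catalytic sites, differed by -0.32 (SE 0.237), Atp5f1c (gamma) by -0.21, Atp5pd by -0.44 and Atp5po, the oligomycin sensitivity protein, by -0.41 (SE 0.238).

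In 5 complex V genes the model mean was higher, again after quantile normalization and not with unnormalized or median-centred signals. Atp5mk, a small membrane subunit, had log2 signals of 10.16, 10.28 and 10.17 in model livers, against 9.86, 9.57 and 9.80 in control livers, without overlap. Its difference was 0.46 (SE 0.195, limma adjusted p = 0.409). The others were Atp5pf, coupling factor 6 of the peripheral stalk, at 0.40, the epsilon subunit Atp5f1e at 0.39, Atp5mf at 0.17 and Atp5mpl at 0.17. With the signals as deposited all 38 genes were lower in model livers (median -1.16, against -0.40 over all probe sets), and with median centring all 38 were lower too (median -0.83, against -0.07). With 1 trimmed mean for every array 34 were lower (median -0.60, against 0.16). On the unnormalized scale Atp5mk was at -0.43, close to the median of all probe sets.

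**Figure D3:**
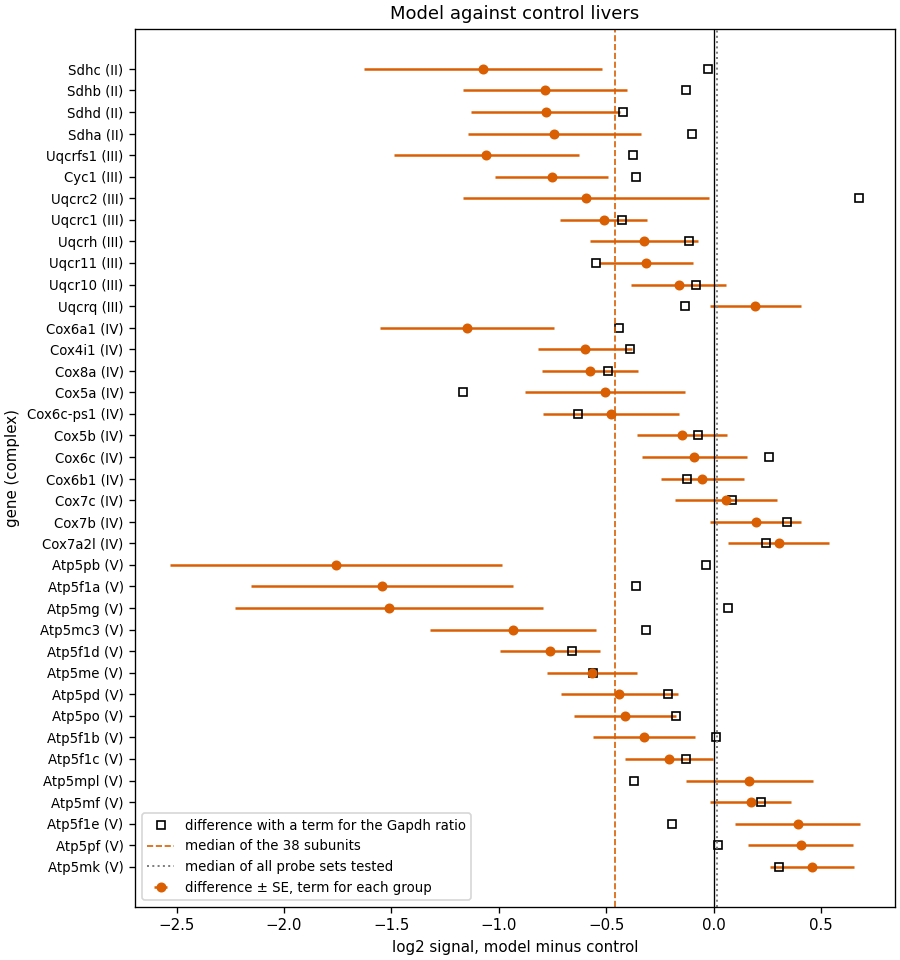
Filled points give the log2 difference of model minus control livers with its SE for the 38 tested genes, grouped by complex, and open squares the same difference from a fit with a term for the Gapdh 3′ to 5′ ratio. Dashed and dotted lines mark the medians of the 38 genes (-0.46) and of all probe sets tested (0.02). For Atp5pb, Atp5mg and Sdhc the squares lie near 0, while for Atp5f1d, Atp5me and Cox8a they lie close to the points.

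The Gapdh ratio was higher in all 3 model arrays than in all 3 control arrays, and the genes were read beside it. In a fit of group means plus the log2 ratio, the slope gives the log2 change of a gene per doubling of the ratio inside the groups. Of the 38 genes, 9 had a slope at a limma adjusted p under 0.05. Of these, 6 were downward (15.8%, against 6.65% of all probe sets) and 3 upward (7.89%, against 7.66%). The slope was below 0 in 28 genes (48% of all probe sets), and its median was -0.07, against 0.01 over all probe sets. The steepest downward slopes were those of Atp5pb (-1.01, SE 0.139, limma adjusted p = 0.00363), Atp5mg (-0.93, SE 0.138, 0.00452), Uqcrc2 (-0.75, SE 0.1001, 0.00356) and Atp5f1a (-0.69, SE 0.164, 0.0224). Sdhc (-0.61) and Cox6a1 (-0.41) followed. Upward were Cox5a (0.39, SE 0.110, limma adjusted p = 0.0429), Atp5f1e (0.34, SE 0.0720, 0.0143) and Atp5mpl (0.31, SE 0.0811, 0.0304), while Atp5pf, at 0.23, did not pass. The slopes of Atp5me (-0.0015), Cox7c (-0.02), Atp5mf (-0.03) and Cox7a2l (0.03) were nearest 0.

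The direction of the slopes depended on the scale. At an unadjusted p under 0.05, 13 genes were downward (34.2%, against 13.9% of all probe sets) and 5 upward (13.2%, against 16.2%). Without normalization the counts were 31 and 0 (30.4% and 3.09% of all), and with median centring 30 and 1 (23.2% and 10.4%). The slopes of Atp5f1e and Atp5mpl were below 0 without normalization. Without control 2 and drug 3, 7 genes passed in limma (1692 of all 18625 probe sets did). There, 26 of 38 slopes were below 0 and the median was -0.11.

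These slope calls rested on drug 1, one of the 2 arrays with ratios under 2. Without drug 1, 0 of the 38 genes and 0 of all probe sets passed in limma. At an unadjusted p under 0.05, 3 genes were then downward and 4 upward (6.49% and 8.42% of all probe sets). Without drug 2 the number passing in limma was 3 (1373 of all probe sets) and without model 1 it was 4 (1733). Slopes were below 0 in 21 of 38 genes without drug 1 and in 20 without control 1 and drug 1, and their median was -0.02 and -0.01 in these fits. The 4 steepest slopes kept their sign and a similar size without drug 1, at -1.17 for Atp5pb, -1.11 for Atp5mg, -0.86 for Uqcrc2 and -0.67 for Atp5f1a.

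With the Gapdh term the difference between model and control livers was smaller. The median of the 38 genes was -0.13, against -0.01 over all probe sets, with 28 genes lower (50.6% of all probe sets were), 4 of them at an unadjusted p under 0.05 (4.78% of all). Those 4 were Atp5f1d at -0.66, Atp5me at -0.56, Uqcr11 at -0.55 and Cox5a at -1.16, and Uqcrc2 was higher at 0.68 (3.67% of all). The further, dimmer Uqcrc2 probe set went the other way with this term, at -0.20. In limma 0 genes passed. With a term for the beta-actin 3′ to 5′ signal ratio instead, the median was -0.39, against -0.02 over all probe sets. There, 28 of 38 genes were lower. Across the 38 genes the difference and the slope ran together (Pearson r = 0.81, Spearman rho = 0.80), which is a description over genes measured on the same arrays, since genes are not independent replicates. Model 1 had the lowest Gapdh ratio of the model group (4.09), closest to those of control 2 and control 3 (3.14 and 3.07). By the beta-actin ratio, however, model 1 was the highest of the 9 arrays, at 12.8, against 8.41 in control 2 and 7.59 in control 3. Model 1 lay below the mean of those 2 arrays in 31 of 38 genes, with a median of -0.16, against 0.00046 and 50% lower over all probe sets. Cox5a (-1.21), Atp5f1d (-0.77), Sdhd (-0.77), Atp5me (-0.70), Cox8a (-0.61) and Cox4i1 (-0.57) were among them, while Atp5pb was at -0.11 and Atp5mg at 0.08. With single arrays on 1 side, these values carry no test.

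The order of the arrays did not follow the ratio everywhere. Taking for each array the median of the genes' deviations from their own means over the 9 arrays, model 2, with the highest ratio of all (12.7), was at 0.06, above model 1 (-0.03) and model 3 (-0.46). Drug 1, 2 and 3 were at 0.16, -0.35 and -0.06, although drug 2 and drug 3 had nearly equal ratios. Control 1, 2 and 3 were at 0.26, 0.24 and 0.18, the 3 highest values. The range over arrays was widest in complex II, where each value is a median of only 4 genes. There, drug livers were at 0.70, -0.82 and -0.02, model livers at 0.07, -0.20 and -0.98 and control livers at 0.79, 0.51 and 0.16. The range was narrowest in complex IV, with 11 genes, between -0.22 in drug 2 and 0.27 in control 3. Because the numbers of genes differ, these ranges do not compare the complexes on equal terms.

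**Figure D4:**
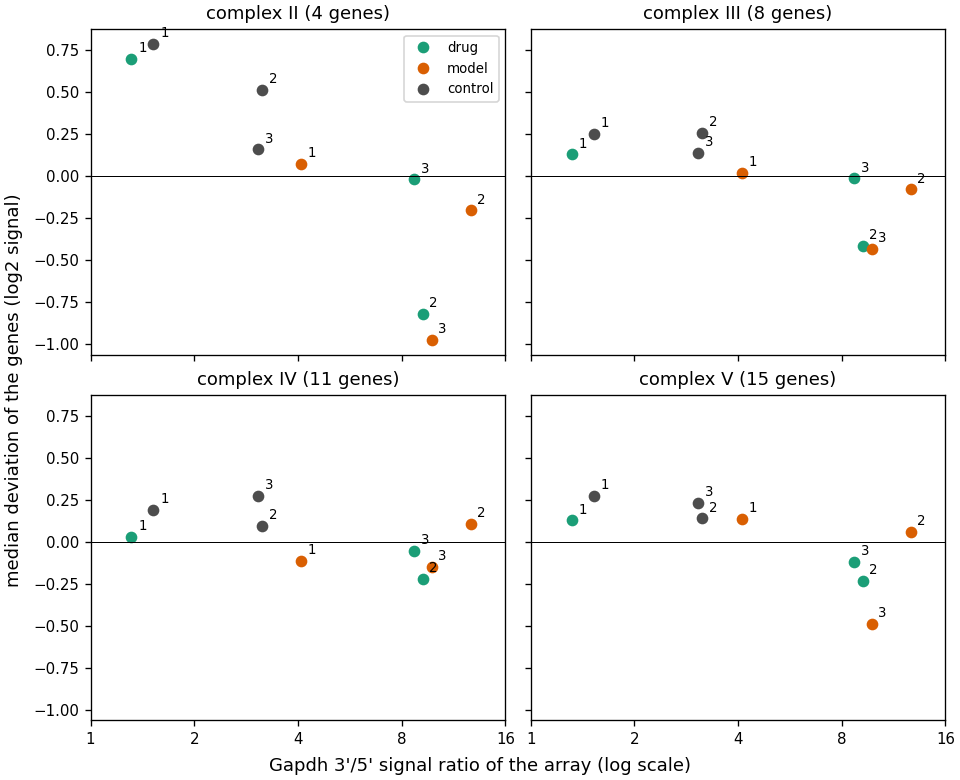
Each panel plots, for 1 complex, the median deviation of its tested genes in each array (log2 signal, vertical) against the array's Gapdh 3′ to 5′ signal ratio (horizontal, log scale), with the replicate number beside each point. Complex II (4 genes) spans from 0.79 in control 1 to -0.98 in model 3, while complex IV (11 genes) stays between -0.22 and 0.27.

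Drug livers did not differ clearly from model livers in these genes. Of 38 genes, 24 had a higher and 14 a lower mean in drug livers, with a median log2 difference of 0.12, against -0.02 over all probe sets, of which 52.1% were lower. In limma 0 genes passed (0% of all probe sets), and at an unadjusted p under 0.05, 1 gene was lower (2.63%, against 1.8% of all probe sets) and 0 were higher (1.47% of all). That gene was Atp5pf, with log2 signals of 9.08, 9.60 and 9.46 in drug livers, against 9.56, 10.26 and 9.97 in model livers. Drug 2 lay just above model 1, and the difference was -0.55 (SE 0.245, limma adjusted p = 0.998). Atp5mk was the gene whose drug arrays (9.65, 10.12 and 9.91) all lay below its model arrays (10.16, 10.28 and 10.17), at -0.31 (SE 0.195), where 4.7% of all probe sets did so. In 0 genes did every drug array lie above every model array (3.35% of all). Among the higher genes, Uqcrc1 (0.35) and Atp5me (0.31) had the smallest p, and averaging its probe sets put Atp5me at -0.17. The largest higher value was that of Atp5pb, with 10.34, 7.39 and 8.06 in drug livers, against 8.85, 7.44 and 6.65 in model livers, at 0.95 (SE 0.772), and it came from drug 1. The median turned to -0.01 without drug 1 and to -0.02 without model 3. It was 0.15 without control 2 and drug 3, where 0 genes were lower at an unadjusted p under 0.05 (1.43% of all were). Between the arrays of more similar ratio, drug 2 and 3 against model 2 and 3, it was 0.02, with 18 of 38 genes lower. Against model 3 alone, whose ratio was nearest theirs, the median of drug 2 and 3 was 0.29, with 30 genes higher and 8 lower, beside -0.03 and 52.2% lower over all probe sets.

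Drug livers lay below control livers in most of these genes. The comparison shares its control arrays with that of model livers, so both hold the same 3 control values. The mean was lower in drug livers in 31 of 38 genes, with a median log2 difference of -0.31, against -0.02 over all probe sets, of which 51.5% were lower. In limma 0 genes passed (0% of all probe sets), and 3 were lower at an unadjusted p under 0.05 (7.89%, against 3.03%), while 0 were higher (4.19% of all). In 11 genes every drug array lay below every control array (28.9%, against 6.49% of all probe sets). Of these, 6 belong to complex IV (Cox4i1, Cox5b, Cox6a1, Cox6b1, Cox8a and Cox6c-ps1), 3 to complex V (Atp5f1c, Atp5f1d and Atp5me) and 2 to complex III (Uqcr10 and Uqcrh). In 0 genes did every drug array lie above (6.05% of all probe sets).

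Atp5f1d had log2 signals of 8.66, 8.10 and 8.66 in drug livers, against 9.12, 9.22 and 9.01 in control livers, at -0.64 (SE 0.232, limma adjusted p = 0.683). All 3 drug arrays were well below the lowest control array. Cox4i1 was at 10.83, 10.21 and 10.40 in drug livers, against 10.89, 10.94 and 11.09 in control livers, at -0.49 (SE 0.219). Drug 1 came close to control 1 here. Cox5b, a subunit of the matrix side, was at 9.92, 9.65 and 9.47 in drug livers, against 10.07, 10.02 and 10.26 in control livers, at -0.44 (SE 0.210). Cox6b1 differed little but evenly, with 9.34, 9.30 and 9.43 in drug livers, against 9.57, 9.56 and 9.59 in control livers. Cox6c-ps1 was at -0.72 (SE 0.318), Sdhc, the lowest value, at -0.998 (SE 0.553) and Cox7a2l, the highest, at 0.35 (SE 0.236). The signal of Cox7a2l was below control livers without normalization, at -0.20, beside a median of -0.36 over all probe sets.

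Drug 1 and control 1, the 2 arrays with the lowest ratios, differed in the same direction, with drug 1 lower in 27 of 38 genes and a median of -0.13, against 0.0028 over all probe sets. Atp5f1d was at -0.46 and Cox5b at -0.15 between them. With the Gapdh term the median was -0.24, against -0.02 over all probe sets, with 29 genes lower (52% of all were), and it was -0.31 without control 2 and drug 3, where 33 were lower. The count of genes lower at an unadjusted p under 0.05 was 13 without drug 1, where 10.1% of all probe sets were. It was 0 without control 2 or drug 2 (1.74% and 2.17% of all). It was 1 without control 1, control 3 or model 2 (2.12%, 1.78% and 2.48%), and 0 without control 2 and drug 3 (0.983%).

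The 6 genes under the filter include the forms of complex IV subunits found mainly in other tissues. Cox6a2, Cox7a1 and Cox8b are the heart and skeletal muscle forms, Cox6b2 and Cox7b2 are testis forms, and Cox4i2 is the lung form that responds to low oxygen. Cox8b had log2 signals of 0.71, -0.97 and 2.02 in drug, -0.79, -0.73 and -0.18 in model, and 5.42, 0.15 and 0.13 in control livers. Control 1 thus stood far above the other 8 arrays. Cox6a2 was also highest there, at 5.12, with values between 0.18 and 4.07 elsewhere. Among 8 striated muscle markers on the array, myoglobin (Mb) was at 5.88 and skeletal actin (Acta1) at 5.09 in control 1, against at most 2.67 and 2.91 in the other arrays. The list as a whole did not set control 1 apart. Its summed signal was between 573 and 3043 in drug, 1218 and 2772 in model, and 938 and 1879 in control arrays, with control 1 the lowest of the control arrays. Myh1, the brightest of the 8, was at 9.63 in control 1, against 9.11 to 11.6 in the others, and creatine kinase Ckm was at 4.34 in control 1 and 4.20 in model 2. Mb and Acta1 were chosen after their values were seen. The part of muscle transcripts in these values was not tested. Cox7a1 was at 0.99, 0.88 and 0.06 in drug livers, against 1.95, 3.20 and 2.91 in model and 2.05, 3.77 and 3.37 in control livers, and the drug arrays were below all others. Signals this low are near background and no difference was fitted for them. Cox4i2, Cox6b2 and Cox7b2 ranged between -1.98 and 3.72 with overlapping groups.

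**Figure D5:**
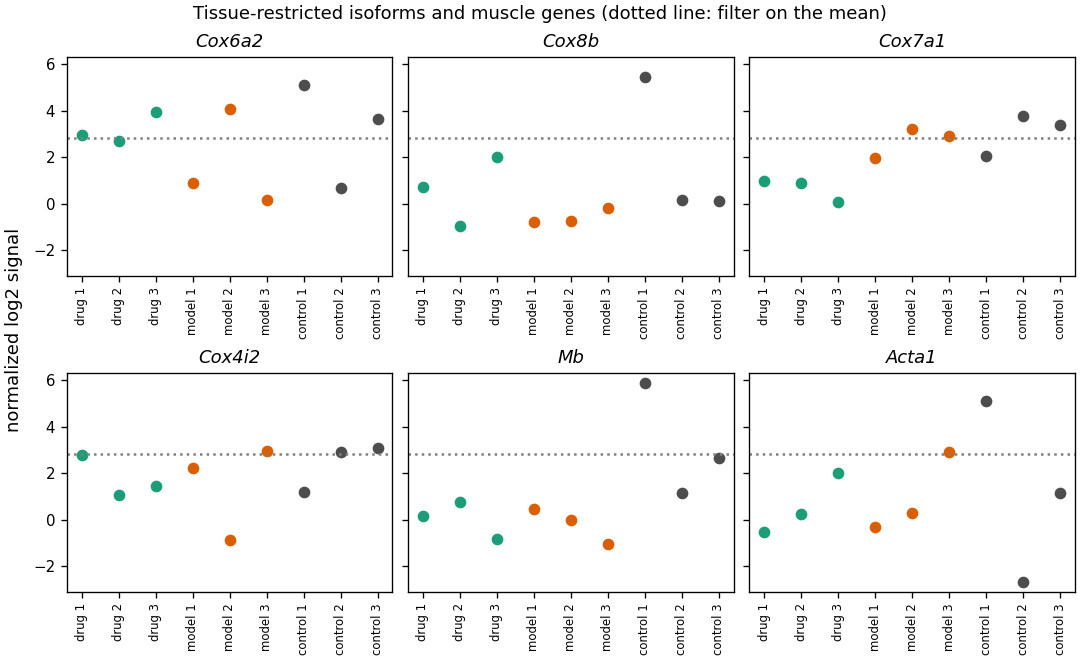
Points give the normalized log2 signal of each array for 4 complex IV genes under the filter and for the muscle genes Mb and Acta1. The dotted line is the filter, which was set on the mean over the 9 arrays (2.82). Cox6a2, Cox8b, Mb and Acta1 are each above 5 in control 1, and Cox7a1 is lowest in the 3 drug arrays.

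Other mitochondrial gene lists were described in the same way, without a test of the list. Genes whose symbols start with Nduf, assembly factors included, stand here for complex I, where electrons from NADH enter. They were taken by symbol alone, without a check that each belongs to complex I. Of 41 tested, 34 were lower in model than in control livers, with a median of -0.50. At an unadjusted p under 0.05, 13 were lower (31.7%, against 5.54% of all probe sets). Ndufv1 was at -0.84 (SE 0.268). Of 11 enzyme genes of the tricarboxylic acid cycle 9 were lower. Their median was -0.57, with Ogdh at -0.70 and Sucla2 at -1.01, and 6 of the 11 followed the Gapdh ratio downward (54.5%, against 6.65% of all probe sets). With the Gapdh term their median was 0.04, with 6 genes higher and 5 lower. Assembly factors of complexes II to V were lower in 24 of 32 genes, with a median of -0.21, among them the complex IV factor Cmc1 at -1.43. The ATP synthase inhibitor Atp5if1 was at -0.80 in model against control livers and 0.99 in drug against model livers. Its list of 7 genes adds the adenine nucleotide, phosphate and anion carriers. Of these 7, 6 were lower in model livers, with a median of -0.59. With the Gapdh term that median was 0.03, where 4 were higher and 3 lower. In drug against model livers 5 of the 7 were higher and 2 lower, with a median of 0.21. There, 0 passed in limma (adjusted p = 0.998 for each). With the Gapdh term the median of the complex I genes in model against control livers was -0.17, with 27 of 41 lower. Of 15 protein import genes 10 were lower, with a median of -0.15. The 12 regulators of mitochondrial transcription had a median of 0.08, with 9 genes higher and 3 lower. Their values ran from -0.95 to 1.37. Tfam, the packaging factor of mitochondrial DNA, was at the low end, at -0.95 (SE 0.442). In limma 0 genes of these lists passed in model against control livers.

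Mean signals of markers of other liver cells differed beside these values, but 0 of the markers tested passed in limma in model against control livers. Of 9 Kupffer cell markers, 7 were at a higher mean in model than in control livers, with a median of 0.91. Their summed signal was between 1098 and 2271 in drug, 1344 and 2770 in model, and 648 and 1348 in control arrays. The summed neutrophil markers were between 135 and 1466 in drug, 440 and 2072 in model, and 114 and 333 in control arrays. Endothelial sums were between 611 and 722 in drug, 866 and 1211 in model, and 687 and 796 in control arrays. The model sums thus lay above all others, but 5 of the 7 markers were higher and 2 lower in model than in control livers, with a median of 0.45. Stellate cell sums were between 542 and 823 in drug, 754 and 1000.3 in model, and 512 and 690 in control arrays, but 4 of the 8 markers were higher and 4 lower in model than in control livers, with a median of -0.01. Erythroid markers were lower in model than in control livers in 3 of 3 genes, with sums between 349 and 2052 in drug, 424 and 2270 in model, and 1182 and 2714 in control arrays. Hbb had a slope of -0.83 on the Gapdh ratio (limma adjusted p = 0.0277). No deposited signal of a marker was at 0, and the part of these cells in the respiratory results was not tested.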

How the data were processed

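Liver RNA of 9 rats was measured on a one-colour Affymetrix rat array, 3 rats in each of the drug, model and control groups. The authors deposited 1 linear signal intensity for each of 31099 probe sets and each array. GCOS 1.2 made them, per the submitters' processing notes, with settings these notes do not state. All signals were above 0, but the arrays had no common scale. Trimmed means, with 2% left out at each end, were between 33.2 and 80.4.

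After 57 control probe sets were left out, log2 signals were quantile normalized, which removes differences in total RNA. Of 31042 probe sets, 20826 had 1 symbol, 436 several and 9780 none in the platform annotation. All 44 genes matched a RefSeq gene identifier, with 0 symbols changed. The filter at the 40th percentile of mean log2 signal (2.82) left 18625 probe sets.

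Differences were fitted with limma 3.58.1 in R 4.3.3 (lmFit, eBayes with an intensity trend), with all 9 arrays in 1 fit and two-sided p-values adjusted over all probe sets. The fit of group differences was tested on simulated data whose spread was set below that of the real arrays. That test does not show which differences could be detected at the real spread. For a single gene, permuting 3 against 3 arrays exactly can reach p = 0.1 at best. Precision is limited by how few arrays there are, and no detection calls were used. Genes were named by a written rule: all complex II genes, the 4 smallest p in each of complexes III to V, all genes higher in model livers, key subunits and isoforms, and the extremes of the other comparisons. Atp5mg, Atp5pb, Cox6b1, Cox6c, Uqcr10, Uqcrh, Atp5pd and Atp5f1c in model against control livers, and further genes whose groups did not overlap, were chosen after their values were seen. The genes, lists and tests were chosen with earlier results of these data known. Alternatives covered scaling, filter, offset, trend, weights, samples, the replicate block, further terms and arrays left out. The comparison of arrays with similar Gapdh ratios was chosen after seeing the data. The NRF-1 letters searched are a shortened form of the motif, set after a longer form had been counted.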

Additional observations from a re-analysis of the deposited data

How the results depend on the processing

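No gene of complexes II to V passed the limma threshold in a comparison of groups under any of the 25 alternatives. In model against control livers, genes lower at an unadjusted p under 0.05 were counted beside the share of all probe sets. The count was 4 with the Gapdh term (4.78% of all), 2 with a beta-actin term (2.58%) and 7 without the intensity trend (4.92%). It was 20 without normalization (7.92%) and 1 without control 2 and drug 3 (2.72%). Leaving out each array in turn gave 1 to 15 (2.87% to 8.33%). The median was -0.13 with the Gapdh term, -0.39 with the beta-actin term and -0.16 between arrays of similar Gapdh ratio. It was -0.83 with median centring and -1.16 without normalization. In drug against control livers the count was 10 with array weights (10.6% of all), 7 with the replicate block (5.48%) and 6 without control 1 and drug 1 (7.01%). It was 1 with the beta-actin term (3.01%), no filter (2.77%), no normalization (3.1%) or a term for control 2 and drug 3 (3.08%). It was 0 when both of these arrays were left out (0.983%), and with single arrays left out 0 to 13 (1.74% to 10.1%). The median was -0.66 with median centring and -0.95 without normalization. In drug against model livers the count was 2 with array weights (5.49% of all). It was 0 with the Gapdh or beta-actin term, each other scaling, no filter, no trend and only the groups compared. It was also 0 with either of the pairs control 1 and drug 1 or control 2 and drug 3 left out. Over the fits with 0 the share of all probe sets was 0.376% to 3.22%. With single arrays left out the count was 0 to 1 (1.06% to 3.19% of all). The number of genes following the Gapdh ratio was 18 with array weights, beside 5521 of all 18625 probe sets. It was 21 with median centring (3703 of all), 26 without normalization (3688) and 3 without the trend (1707). With the replicate block and without control 1 and drug 1 it was 0 (0 of all). With single arrays left out it was 0 to 12 (0 to 2881 of all). The causes of these shifts were not tested. Where arrays were left out, fewer arrays also entered the fit. Same-numbered arrays deviated from their group means with correlations from -0.01 to 0.48. Arrays of different numbers were not compared, so these values cannot decide whether the replicate numbers pair the arrays. With the replicate block the count of lower genes in model against control livers was 17 (9.78% of all probe sets were).

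Some single genes changed sign. In model against control livers, without normalization, Atp5f1e was at -0.37, Atp5mf -0.68, Atp5mk -0.43, Atp5mpl -0.57, Atp5pf -0.45, Cox7a2l -0.40, Cox7b -0.63, Cox7c -0.82 and Uqcrq -0.59. With median centring they were at -0.0422, -0.35, -0.10, -0.24, -0.12, -0.0697, -0.30, -0.49 and -0.26. Scaling to 1 trimmed mean turned Atp5mf (-0.12), Atp5mpl (-0.00551), Cox7b (-0.0749), Cox7c (-0.26) and Uqcrq (-0.0338). The Gapdh term turned Atp5f1b (0.009995), Atp5f1e (-0.20), Atp5mpl (-0.37), Uqcrc2 (0.68) and Uqcrq (-0.13), and the beta-actin term Atp5mpl (-0.0713) and Uqcrc2 (0.0474). The further Uqcrc2 probe set stayed below 0 with the Gapdh term, at -0.20. Cox7c was at -0.0418 with a term for control 2 and drug 3 and -0.15 without them. Averaging probe sets put Atp5me at 0.075 in model against control and -0.17 in drug against model livers, and Cox7a2l was at -0.20 in drug against control livers without normalization.

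With single arrays left out, Cox7c was between -0.15 and 0.24 and Atp5mpl between -0.067 and 0.36 in model against control livers.

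Among slopes, those without normalization were -0.13 for Atp5f1e, -0.12 for Atp5mpl, -0.25 for Atp5pf and -0.41 for Cox7a2l, and with median centring -0.0596 for Atp5pf and -0.22 for Cox7a2l. Cox7a2l was at -0.0455 with the trimmed mean. Atp5me was at 0.53 with averaged probe sets and 0.21 without control 1 and drug 1. Cox7c was at 0.13 with the replicate block, 0.0397 with a term for control 2 and drug 3 and 0.0127 without them. With single arrays left out, slopes were between -0.0531 and 0.13 for Atp5me, -0.0529 and 0.0137 for Cox7c, -0.0538 and 0.00998 for Atp5mf, and -0.0204 and 0.0992 for Cox7a2l.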
